A study of Mus musculus with 35 samples.

Results

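Broad H3K27me3 domains are described here as the regions of wild-type mouse cranial neural crest in which trimethylation of histone H3 at lysine 27 formed 1 unbroken peak of 10000 bp or more. Members were chosen by the width of the peaks called on pooled wild-type libraries, and by nothing else, on chromosomes 1 to 19. They numbered 1046 of the 17379 wild-type peaks on those chromosomes, of 34080 autosomal peaks called in wild type or female knockout, and of 37812 peaks on all chromosomes. Because wild-type H3K27me3 reads set the width of a peak, every comparison of H3K27me3 with wild type below is a description and supports nothing. H3K4me3, UTX and the comparison of the 2 knockout groups with each other were not used in choosing the members.

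The series profiled cells without UTX, the product of Kdm6a on the X chromosome and an enzyme that demethylates H3K27, in the cranial neural crest, the migratory cells that build much of the face. Tomato-labelled, DAPI-excluding cells were sorted from heads at E12.5, and all groups carried Wnt1-Cre and the Rosa-Tomato reporter. Wild-type embryos (WT Wnt1-Cre) were male, male knockouts were Utx fl/y, Wnt1-Cre, and female knockouts were Utx fl/fl, Wnt1-Cre, so genotype and sex cannot be told apart between female knockout and wild type. Each histone mark was immunoprecipitated from chromatin digested with micrococcal nuclease without fixation, with 3 libraries of wild type, 3 of female knockout and 1 of male knockout. Wnt1-Cre acts in the neural crest and in parts of the dorsal neural tube, and sorting by the reporter keeps whatever cells have expressed it. UTX was mapped in 1 library of O9-1, a wild-type neural crest line derived at E8.5 and fixed with formaldehyde, which differs from the sorted cells in stage and culture. Nothing in the labels says whether libraries of 1 group came from separate embryos, so p-values measure the spread between these libraries, which may be technical.

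H3K27me3 is deposited by Polycomb repressive complex 2, whose reader subunit binds the mark and stimulates further methylation nearby, which lets the mark spread over long stretches of chromatin. Broad domains of this kind are known over developmental regulator genes held silent in a given lineage. H3K4me3 marks promoters that are active or held ready, and a region carrying both marks in a cell population is called bivalent. UTX removes methyl groups from H3K27 and also belongs to complexes that methylate H3K4 at enhancers.

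Reads in autosomal peaks ranged from 15070248 to 18248985 per H3K27me3 library and from 22221560 to 39366680 per H3K4me3 library. Libraries of 1 group differed little more than sampling noise allows. Over the peaks, the chi-square per degree of freedom between such pairs was 1.05 to 1.19 for H3K27me3, against 3.803 to 4.637 between wild type and female knockout. For H3K4me3 it was 1.10 to 1.44 within groups, against 4.38 to 8.94 between wild type and female knockout. Kdm6a messenger RNA stood at 47.3 and 55.5 CPM (counts scaled to the library total) in the wild-type RNA libraries, 39.7 and 30.8 in the male knockout and 49.7 and 62.7 in the female knockout. Counts over the whole gene include exons outside the floxed part, so they do not check the deletion. Uty, its Y-linked relative, was read at 34.6 and 42.4 CPM in the wild-type libraries, and the female knockout had 0.00 and 0.65. All 12 crest and facial mesenchyme markers listed, among them Twist1, Prrx1 and Sox10, were at 1 CPM or more in every RNA library, with a summed level of 1813 to 2107 CPM. Single crest markers differed in direction. Dlx2 was at 36.4 and 35.2 CPM in wild type and at 16.3 to 23.2 in the knockouts. Twist1 (206 and 205 in wild type, 221 to 267 in the knockouts) and Sox10 (62.6 and 69.6, then 71.1 to 76.5) were higher in every knockout library. Neuronal markers (5 of 5 at 1 CPM or more) summed to 1540 and 1669 CPM in wild type and to between 843 and 1429 in the knockouts. Summed erythroid markers (4 of 6, with Hba-a1 at 0 in every library) ranged from 313 to 1303 CPM, endothelial markers (2 of 5) from 8.68 to 13.6 and epithelial markers (4 of 5) from 12.4 to 18.4. Leukocyte markers (2 of 4) summed to 7.03 and 8.34 CPM in the wild-type libraries and to between 3.86 and 4.48 in the knockouts. In the summed neuronal and leukocyte markers no knockout library reached the lower wild-type library. Of the single neuronal markers, Tubb3, Elavl3 and Snap25 showed the same, while Stmn2 and Elavl4 did not. Stmn2 was at 290 and 311 CPM in wild type, 346 in the second male and 305 in the second female knockout library. Elavl4 was at 114 and 182, then 148 and 126 in the same order. The first library of each knockout group was below both wild-type libraries for these 2 genes. The part of these other cells in the chromatin results was not tested.

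The 1046 domains covered 19.999 Mb, which was 31.5% of all bases under wild-type autosomal H3K27me3 peaks. Widths ran from 10001 to 230775 bp with a median of 14694 bp. Most lay near the lower limit: 748 were 10 to 20 kb wide, 272 were 20 to 50 kb and 26 were 50 kb or more, 5 of these over 100 kb. Read density, given throughout as CPM per kb of domain with library totals adjusted by the TMM factors described below, had a median of 9.99 in wild type and ran from 1.70 to 57.9. Wild-type peaks under 10 kb had a median density of 2.30. Density was higher in wider domains, with medians of 8.43, 15.7 and 16.8 in the 3 width classes. Across the 1046 domains width and density had a Spearman rho of 0.37, both being taken from the same libraries. Densities on both sides of the width threshold overlapped. The 3 narrowest members (chr18:21805846-21815846, chr9:98565797-98575799 and chr4:45835042-45845048) were 10001, 10003 and 10007 bp wide with wild-type densities of 14.1, 2.48 and 15.8. The 3 widest peaks left out (chr3:29908446-29918438, chr1:183277408-183287395 and chr8:123458447-123468433) were 9993, 9988 and 9987 bp wide with densities of 6.93, 11.3 and 3.43.

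Domains also lay in strings along the chromosome. Joining neighbours separated by up to 10000 bp gave 50 strings of 2 or more that held 104 domains. The longest such string by number, chr8:12379014-12513411, held 5 domains that filled 84.1% of its 134398 bp, with wild-type densities from 6.15 to 24.8. A string at chr15:102724817-102982945 held the widest domain and 1 neighbour and was 98.2% filled. At chr11:96005916-96244913, 4 domains separated by up to 50000 bp filled 88.3% of 238998 bp.

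The 4 widest domains were at chr15:102724817-102955591, chr6:52093197-52279094, chr11:96107247-96244913 and chr2:74480229-74607603 on genome build mm9. In the RefSeq gene table of a later build, GRCm38.p6, the Hoxc, Hoxa, Hoxb and Hoxd clusters, which encode the factors that assign position along the body axis, lie on chromosomes 15, 6, 11 and 2. No annotation of build mm9 was at hand, so no domain was assigned to a gene. In the widest, of 230775 bp, density was 23.8, 23.4 and 23.5 in wild type, then 25.6, 24.9 and 24.4 in the female knockout and 24.7 in the male knockout. The chromosome 6 domain of 185898 bp stood at 31.4, 30.9 and 30.9 in wild type, then 33.8, 32.2 and 32.0 in the female knockout and 32.2 in the male knockout. In both, each female knockout library was above all 3 wild-type libraries, by less than 10%. The chromosome 11 domain stood at 31.3, 30.7 and 30.5, then 33.9, 32.5 and 32.1, then 32.7 in the same order of groups. The chromosome 2 domain stood at 32.8, 31.9 and 32.4, then 35.6, 33.7 and 33.3, then 33.6. The same separation held at the chromosome 11 and chromosome 2 domains, and in all 4 the first female knockout library was the highest of the 7. The log2 fold change of these 4 domains, female knockout over wild type, was 0.08 ± 0.03, 0.07 ± 0.03, 0.09 ± 0.03 and 0.08 ± 0.03 (standard error of the fit). Among the 10 widest, chr8:87269030-87338850 stood apart, at 7.85, 7.56 and 7.67 in wild type, then 10.7, 10.4 and 10.3 in the female knockout and 9.41 in the male knockout, a log2 fold change of 0.44 ± 0.03 and 0.29 ± 0.04.

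**Figure D1:**
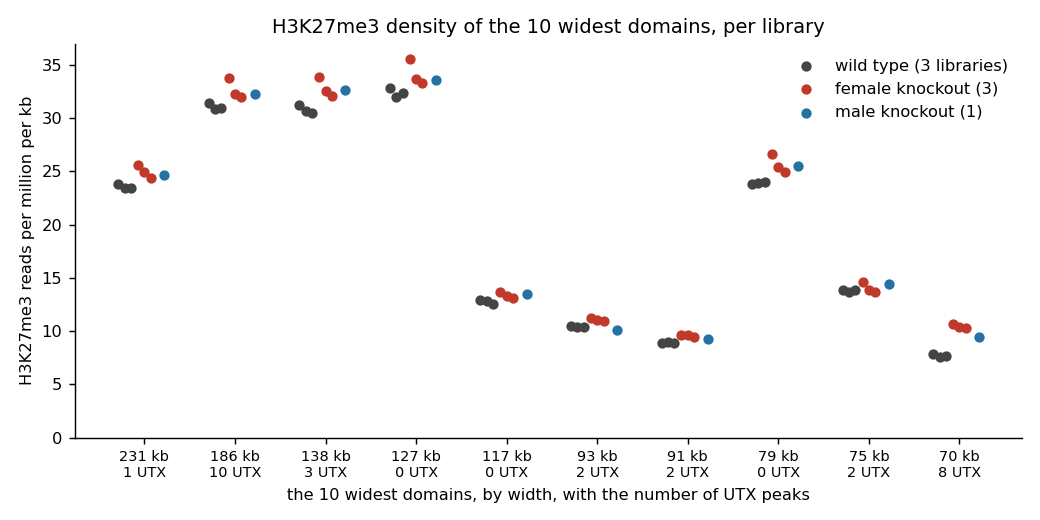
H3K27me3 density (CPM per kb, linear axis from 0) of the 10 widest domains, with 1 point per library, grouped as wild type, female knockout and male knockout; labels give the width and the number of UTX peaks. Groups lie close together except at the 70 kb domain, where wild type is at 7.56 to 7.85 and the female knockout at 10.3 to 10.7.

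The highest density was found at chr15:98598692-98641471, a domain of 42780 bp on the chromosome that also carried the widest one. It held 59.4, 57.8 and 56.6 CPM per kb in wild type, then 64.3, 61.2 and 61.4 in the female knockout and 60.7 in the male knockout. The next in order were chr7:138680543-138703262, chr2:74480229-74607603, chr19:45292254-45321669 and chr2:105493378-105534096, with wild-type means of 33.6 ± 0.60, 32.4 ± 0.42, 32.1 ± 0.47 and 32.0 ± 0.21 (SD, n = 3). All 3 wild-type libraries at the chromosome 7 domain lay above those at the other 3, whose libraries overlapped each other.

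Every domain was again overlapped by an H3K27me3 peak called on the pooled female knockout libraries. The median share of a domain's width under female knockout peaks was 95.2%, and 956 of 1046 domains (91.4%, exact 95% interval 89.5 to 93.0) were covered over at least 80% of their width. A single female knockout peak covered 835 domains, 2 peaks covered 180 and 3 or more covered 31. Of the domain edges, 62.9% were matched by a female knockout edge within 500 bp, and the median edge lay 109 bp further in. The female knockout list had 986 peaks of 10 kb or more. Of these 890 (90.3%) overlapped a wild-type domain, while 879 (84.0%) of the wild-type domains overlapped one of them, and none of the 986 lacked a wild-type peak. The least covered domain, chr17:35443842-35462298, had 30.5% of its 18457 bp under female knockout peaks, and its density was 6.22, 6.04 and 6.32 in wild type, then 4.45, 4.36 and 4.27 in the female knockout and 5.49 in the male knockout. Next came chr4:72040367-72051731 (39.2%), chr6:143339975-143352466 (42.6%), chr11:70061891-70072210 (48.6%) and chr18:46356267-46367801 (49.9%). At the chromosome 11 region the libraries of both groups overlapped, with wild type at 8.82 to 9.26 and the female knockout at 8.58 to 8.999, although less than 50% of its width was called there. Peak calls came from pooled libraries, so coverage has no replicate error.

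Of the reads in wild-type peaks, domains held 52.8% ± 0.07 in wild type (SD, n = 3), 53.9% ± 0.35 in the female knockout (n = 3) and 53.4% in the male knockout library. The wild-type libraries ranged from 52.76% to 52.90% and the knockout libraries from 53.39% to 54.26%, so the groups did not overlap. Wild-type reads called every peak of this list and set which were domains, which can by itself shift these shares. The separation thus supports nothing. Of the reads counted over the peaks of both lists together, where a region called in both counts more than once, they held 26.6% ± 0.03, 26.96% ± 0.17 and 26.8%.

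After scaling on the reads in peaks, H3K27me3 in the domains of the female knockout lay close to the wild-type level. Counts per peak were compared with the quasi-likelihood test of edgeR, scaled by trimmed mean of M values (TMM), with Benjamini-Hochberg adjustment over every tested autosomal peak and a threshold of 0.05. All 1046 domains passed the filter on low counts. Of them 389 were called higher and 132 lower in the female knockout, where 25.8% of all 33893 tested peaks were called, 13.9% higher and 11.9% lower. The members' shares, 37.2% higher and 12.6% lower, are given without a reading because wild-type reads chose them. The median log2 fold change was 0.05 over the domains and 0.00 over all tested peaks. Within 0.25 of 0 on the log2 scale lay 959 domains (91.7%). Only 8 domains were called with a fold of 1.5 or more, 2 higher and 6 lower, where 4.58% of all tested peaks were, 2.35% higher and 2.22% lower. The median standard error was 0.03 in domains against 0.13 over all peaks, and the smallest difference called in a domain was 0.07 on the log2 scale. The balance of calls depended on the scaling, and higher calls outnumbered lower ones under each scaling tried. With library totals in place of TMM, 276 domains were higher and 240 lower and the median was 0.01, while with the wild-type peak list alone 588 were higher and 89 lower and the median was 0.10. Each scaling used the counts in peaks alone, so a change shared by most peaks would be removed. The values thus give a position relative to other peaks, and the absolute level of the mark was not tested. In bulk samples, more cells carrying the mark and more mark per cell cannot be told apart.

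Among domains, the wider ones lay higher in the female knockout. The median log2 fold change was 0.04 at 10 to 20 kb, 0.07 at 20 to 50 kb and 0.09 at 50 kb or more, after -0.15 under 2 kb, -0.05 at 2 to 5 kb and -0.0027 at 5 to 10 kb among narrower wild-type peaks. The share called higher went from 29.9% to 54.0% and 69.2% over the 3 classes of domains, and the share called lower from 15.0% to 6.99% and 3.85%. Of all tested peaks 13.9% were called higher and 11.9% lower. Wider domains vary less between libraries, with a median wild-type coefficient of variation of 2.42%, 1.47% and 1.31%, so a shift of equal size is called more easily there. Choosing by female knockout width instead gave 434 of 986 peaks of 10 kb or more called higher (44.0%) and 72 lower (7.30%), with a median of 0.07. That choice rests on female knockout reads and can by itself raise the female knockout values, so it supports nothing either. In the male knockout library the medians were 0.04, 0.05 and 0.06 in the same order of width. Both knockouts are set against the same wild-type libraries.

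**Figure D2:**
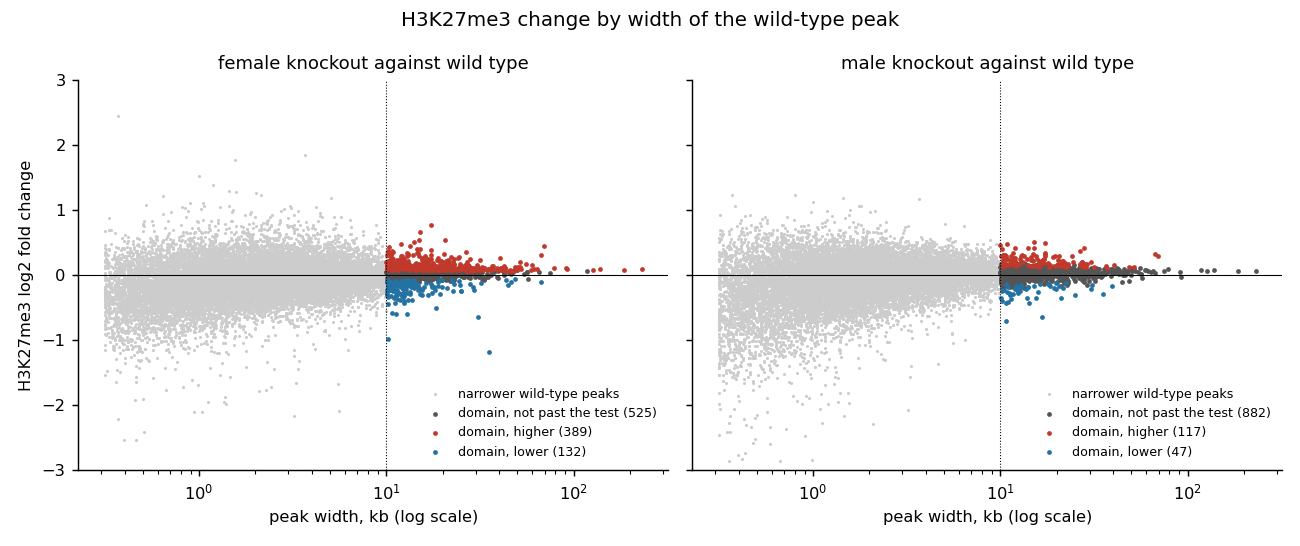
Log2 fold change of H3K27me3 against wild type for every tested wild-type peak, by peak width in kb (log axis), for the female knockout (left) and the male knockout (right); grey points are peaks under 10 kb and coloured points the domains by call. Domains gather near 0 while narrower peaks spread widely, and 8 narrow peaks of the right panel lie outside the axis.

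Of the 8 domains called with a fold of 1.5 or more in the female knockout, 6 were 10 to 20 kb wide, 0.802% of that class, and 2 were 20 to 50 kb wide, 0.735% of theirs. Highest was chr12:110682921-110700294, 17374 bp, at 5.74, 5.45 and 5.58 CPM per kb in wild type, then 9.70, 9.48 and 9.33 in the female knockout and 7.87 in the male knockout. Second was chr1:75441639-75456684, 15046 bp, at 7.85, 7.65 and 7.57, then 12.23, 12.10 and 11.97, then 10.2 in the same order. At both, all knockout libraries were above all wild-type libraries and the male knockout lay between the groups. The log2 fold changes of the pair were 0.77 ± 0.03 and 0.65 ± 0.03 in the female knockout and 0.49 ± 0.05 and 0.41 ± 0.05 in the male knockout. Next by p came chr4:124654816-124669709 in the female knockout (0.54 ± 0.03) and chr8:125192666-125206767 in the male knockout (0.41 ± 0.05).

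Lowest was chr17:36274830-36310359, 35530 bp, at 9.70, 9.36 and 9.32 in wild type, then 4.090, 4.201 and 4.146 in the female knockout and 7.75 in the male knockout. Its log2 fold change was -1.19 ± 0.03 in the female and -0.29 ± 0.04 in the male knockout. A second domain 38030 bp further along, chr17:36348390-36379083, stood at 7.81, 7.53 and 7.54, then 4.80, 4.88 and 4.93, then 6.83, with log2 fold changes of -0.65 ± 0.03 and -0.16 ± 0.04. On chromosome 17 the least covered domain, named above, had -0.50 ± 0.04 and -0.17 ± 0.05. At chr14:112072650-112082836 density was 6.94, 6.92 and 6.66 in wild type, then 3.40, 3.44 and 3.59 in the female knockout and 5.18 in the male knockout. The remaining 3 low domains were chr10:80295760-80308661 (-0.60 ± 0.04), chr13:22070137-22081369 (-0.60 ± 0.05) and chr16:91347684-91358405 (-0.59 ± 0.06) in the female knockout. In all 6, no female knockout library reached the lowest wild-type library. The labels give no strain background, and whether the groups differ in haplotype at the 3 chromosome 17 domains was not tested.

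**Figure D3:**
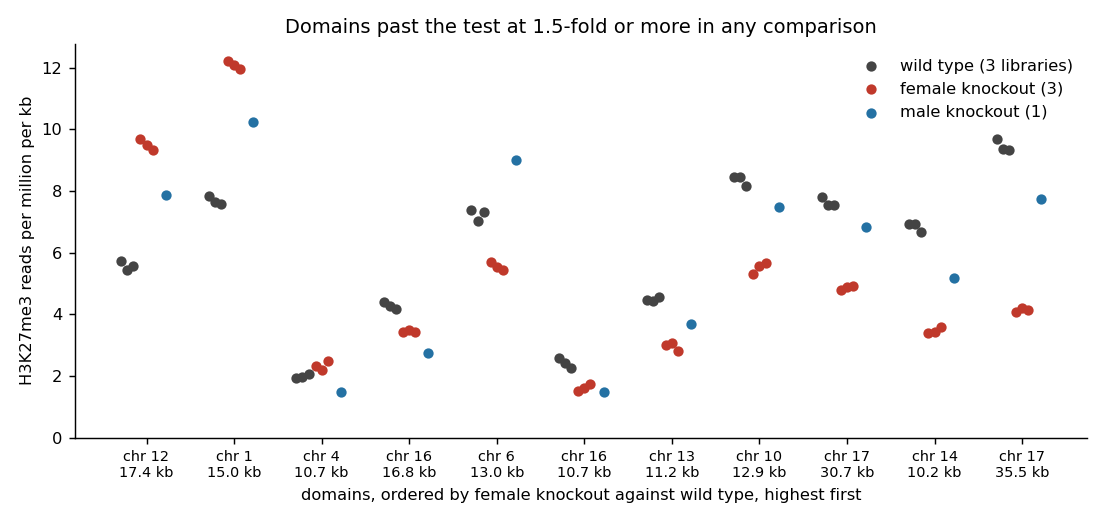
H3K27me3 density (CPM per kb, linear axis from 0) per library in the 11 domains called with a fold of 1.5 or more in any of the 3 comparisons, ordered by the female knockout against wild type. In most, the male knockout point lies between the other groups, and at the chromosome 6 domain it lies above wild type while the female knockout lies below.

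In the male knockout library, 117 domains were called higher and 47 lower than wild type, where 6.94% of all 34078 tested peaks were called, 4.28% higher and 2.66% lower. Its variation had to be taken from the other groups, as it is 1 library. The median log2 fold change over domains was 0.04, and 988 domains (94.5%) lay within 0.25 of 0. Library totals gave 102 higher and 90 lower, and the wild-type peak list alone 277 and 35. Leaving the first female knockout library out of the fit, which changes only the estimated spread and scaling, gave 225 higher and 53 lower. A fold of 1.5 was passed by 2 domains, both lower and both on chromosome 16, where 0.98% of all tested peaks were lower by that much. One, chr16:91299619-91316400, stood at 4.41, 4.26 and 4.18 in wild type, then 3.42, 3.49 and 3.44 in the female knockout and 2.73 in the male knockout (-0.65 ± 0.06). The other, chr16:91347684-91358405, stood at 2.59, 2.43 and 2.25, then 1.502, 1.614 and 1.730, then 1.479 (-0.71 ± 0.09). They lay 31283 bp apart. The next lowest by p were chr3:96124646-96149703 (-0.32 ± 0.04) and chr1:172990666-173002032 (-0.37 ± 0.05).

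The female and male knockouts were compared directly, a contrast that the choice of members did not use. In edgeR's quasi-likelihood test 35 domains were higher and 34 lower in the female knockout, 6.60% of the 1046, where 2.84% of all tested peaks were called, 1.41% higher and 1.43% lower. A fold of 1.5 was passed by 1 domain that was higher and 2 that were lower, where 0.602% of all tested peaks passed it, 0.39% higher and 0.211% lower. The median log2 difference was 0.01, and 1022 domains (97.7%) lay within 0.25 of 0. The median standard error was 0.045 in domains against 0.19 over all peaks, so small differences are called more easily in domains. With the second female knockout library left out, 20 were higher and 24 lower, and with the wild-type peak list alone 45 and 24. Lowest in the female knockout was the chromosome 17 domain chr17:36274830-36310359 (log2 difference -0.90 ± 0.04, adjusted p = 1.85e-100 in edgeR). At chr6:124941539-124954531 the 2 knockouts lay on opposite sides of wild type. Density there was 7.39, 7.04 and 7.31 in wild type, then 5.70, 5.55 and 5.42 in the female knockout and 9.01 in the male knockout, and the female and male knockouts differed by -0.70 ± 0.05 (edgeR adjusted p = 1.22e-40). The reverse order was seen at chr4:61460449-61471146, a sparse domain at 1.93, 1.97 and 2.08 in wild type, then 2.34, 2.20 and 2.48 in the female knockout and 1.48 in the male knockout (0.65 ± 0.09, edgeR adjusted p = 3.40e-09). Also higher in the female knockout were chr4:138002227-138016469 (0.34 ± 0.06, edgeR adjusted p = 8.06e-07) and chr12:110682921-110700294 (0.27 ± 0.05, edgeR adjusted p = 6.71e-07).

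Nearly all domains carried H3K4me3 in these bulk cells. A wild-type H3K4me3 peak lay in 1020 of 1046 domains (97.5%, exact 95% interval 96.4 to 98.4) and a female knockout H3K4me3 peak in 988 (94.5%), while 24 domains had neither. Among narrower wild-type H3K27me3 peaks 61.6% held a wild-type H3K4me3 peak. A wide region meets more peaks by its width alone: per 10 kb there were 1.2995 wild-type H3K4me3 peaks in domains and 2.50 in narrower peaks. Peaks that met a region by 1 bp counted in full, which raises the number per 10 kb in narrow regions. Of the bases, 29.1% in domains and 32.0% in narrower peaks were under H3K4me3. The overlap of 2 marks in a sorted population does not show that they lie in the same cell.

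H3K4me3 formed islands inside the domains. A domain held a median of 2 wild-type H3K4me3 peaks and at most 24, and a median of 26.5% of its width was under them. In 158 domains at least 50% of the width was under H3K4me3, and in 173 less than 10% was. Only 126 of the 2598 wild-type H3K4me3 peaks in domains (4.85%) crossed a domain edge. Of the 2472 lying wholly inside, 14.2%, 22.3%, 26.5%, 22.7% and 14.3% had their midpoint in the successive 5 equal parts of the domain, so they were most frequent in the middle. Wide peaks cannot have a midpoint near an edge and lie wholly inside, which by itself lowers the outer shares. Denser domains had more of their width under H3K4me3 (Spearman rho 0.49 over 1046 domains, from different libraries of the same cells), while width had no such relation (rho 0.00).

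The extremes of this overlap were far apart. Among domains of 20 kb or more, chr12:34637614-34658663 had 92.8% of its width under wild-type H3K4me3, chr2:115877958-115904972 had 87.2%, chr1:57020369-57046170 had 83.8%, chr2:73099951-73121159 had 83.2% and chr5:120104087-120143624 had 81.9%. None was found under H3K4me3 at chr6:51870513-51893191 and chr6:71605369-71626109, and 0.605%, 0.772% and 1.38% at chr17:36274830-36310359, chr2:78181629-78208839 and chr7:77308489-77337608. H3K27me3 density at the first 5 was 5.38, 13.01, 16.4, 28.7 and 14.2 as a wild-type mean, and at the 2 without H3K4me3 it was 2.34 and 2.14. The 24 domains with no H3K4me3 peak in either list were narrow, with a median width of 12076 bp, and sparse, with a median density of 2.26. None of them held a UTX peak.

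H3K4me3 peaks inside the domains lay higher in both knockouts than H3K4me3 peaks elsewhere did. Of 4988 H3K4me3 peaks of the wild-type and female knockout lists that overlapped a domain, 4964 were tested in the female knockout, and 1885 of these (38.0%) rose and 660 (13.3%) fell in the female knockout. Of all 88217 tested H3K4me3 peaks 24.8% rose and 32.5% fell, by the same edgeR test. The median log2 fold change was 0.13 in domains and -0.08 over all peaks, a gap of 0.21. Scaling moved both together: with library totals the medians were 0.02 and -0.20 with 916 rising and 964 falling in domains, and with the size factors of DESeq2 they were 0.20 and -0.02 with 2315 rising and 547 falling, and the gap was 0.21 in each. Whether H3K4me3 in the domains rose thus depended on the scaling. A change of scaling shifts all peaks by nearly the same amount, so the gap could not differ and these 3 scalings do not test it. The size of the gap depended on the peak list. A fit of the wild-type H3K4me3 list alone gave medians of 0.19 and -0.21, a gap of 0.40, while in the fit of both lists the peaks of the female knockout list had 0.16 in domains and 0.04 outside. By domain, 560 held only risen peaks, 213 only fallen ones, 106 both and 167 neither.

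The gap was larger in the lower 2 of 4 equal classes of H3K4me3 peaks by mean CPM. Peaks in domains were also stronger, with a median of 5.23 CPM against 2.33 outside. The part of this difference in level in the gap over all classes was not tested. In the lowest class the median log2 fold change in the female knockout was -0.17 in domains and -0.63 outside, in the next -0.08 and -0.47, in the one above 0.14 and -0.02, and in the highest 0.19 and 0.16. The lists differed in sign in the lowest class: peaks of the wild-type list had -0.51 in domains and -0.84 outside, and those of the female knockout list 0.20 and -0.16. In the class above they had -0.20 and -0.59, and -0.0030 and -0.30. Among the strongest peaks 79.2% rose in domains and 70.4% outside. The median change by domain followed the same line: summed over the peaks of both lists, it was -0.36 in the 149 domains with H3K4me3 over less than 10% of their width and a peak in either list, and 0.15, 0.18 and 0.20 in those with 10 to 25%, 25 to 50% and 50% or more. The change of H3K27me3 and that of summed H3K4me3 in a domain had a Spearman rho of -0.11 over 1022 domains, from separate libraries of the same groups.

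As a share of all H3K4me3 reads in peaks, domains held 6.43%, 6.53% and 6.60% in the 3 wild-type libraries, 6.82%, 6.90% and 6.87% in the female knockout and 7.23% in the male knockout. The groups did not overlap. The exact two-sided permutation test of wild type against female knockout gave p = 0.1, the smallest value that 3 against 3 libraries allow.

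The male knockout library showed the larger H3K4me3 difference. Of 4987 tested H3K4me3 peaks in domains 2040 (40.9%) rose and 492 (9.87%) fell against wild type, where 23.3% and 26.0% of all 89143 tested peaks did. The median was 0.20 in domains and -0.08 over all peaks, a gap of 0.28 that became 0.42 in a fit of the wild-type list alone. The limit from peak lists called on reads of the compared groups holds for this gap too. Library totals gave 1351 rising and 827 falling. Compared directly, the female knockout was higher at 167 (3.35%) and lower at 914 (18.3%) of these peaks, where 4.66% of all tested peaks were higher and 7.25% lower in edgeR's test. The median log2 difference of female from male knockout was -0.09 in domains and 0.00 over all peaks. It was negative in domains in each class of level (-0.02, -0.13, -0.09 and -0.09, from lowest to highest), against 0.13, 0.06, 0.00 and -0.03 outside. In the lowest class the sign in domains depended on the list, at -0.095 for peaks of the wild-type list and 0.056 for those of the female knockout list. With 1 male library, its own deviation and that of its group cannot be told apart.

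**Figure D4:**
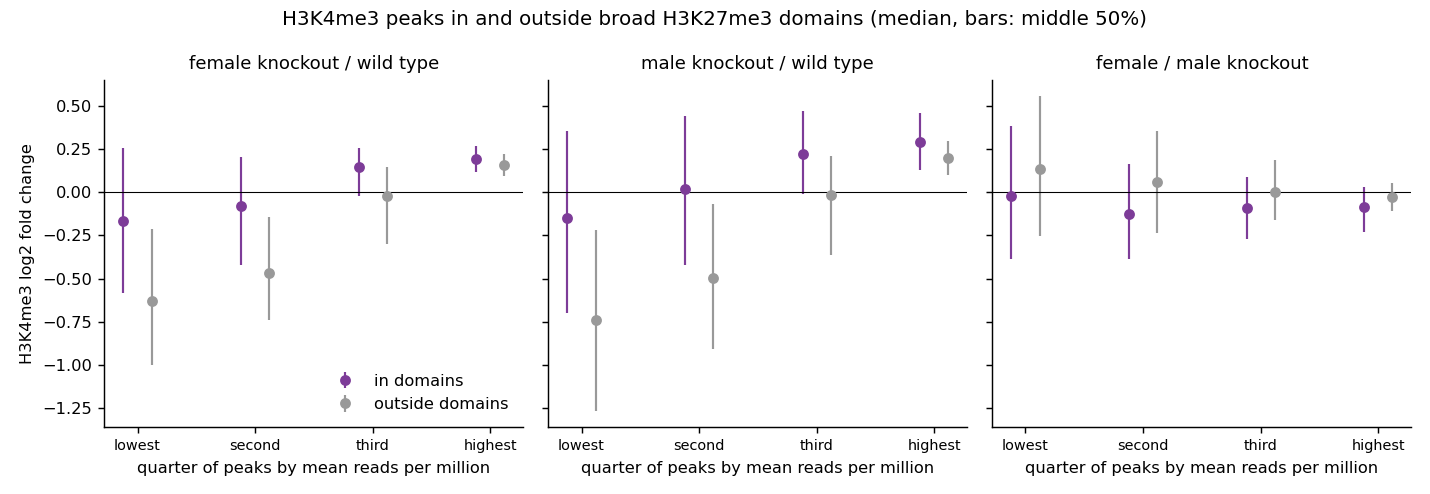
Median log2 fold change of H3K4me3 peaks (points) with the middle 50% of peaks (bars), for peaks of both lists together in domains and outside, in 4 equal classes of all peaks by mean CPM, for the 3 comparisons. In the left and middle panels the domain points lie above the others, by most in the lowest class, -0.17 against -0.63 in the female knockout.

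The H3K4me3 islands named here had the smallest p in a comparison and direction. At chr10:21867815-21871581, an island across the edge of a domain of 17.0 kb, H3K4me3 stood at 14.5, 14.9 and 13.5 CPM in wild type, then 38.8, 37.8 and 37.4 in the female knockout and 43.3 in the male knockout. It rose by a log2 fold change of 1.41 ± 0.05 in the female (edgeR adjusted p = 2.05e-65) and 1.60 ± 0.07 in the male knockout (edgeR adjusted p = 5.62e-104), while H3K27me3 of the domain differed by 0.22 and 0.24. At chr5:120110559-120141298, a block of H3K4me3 that filled most of its domain, levels were 202.5, 201.5 and 201.3 CPM in wild type, then 299.1, 286.9 and 284.9 in the female knockout and 218.4 in the male knockout. It rose by 0.51 ± 0.03 in the female knockout (edgeR adjusted p = 4.53e-38) and by 0.11 ± 0.05 in the male (edgeR adjusted p = 0.0451), the latter with the opposite sign under library totals, and the 2 knockouts differed by 0.41 ± 0.05 (edgeR adjusted p = 1.57e-13). H3K27me3 of that domain differed by -0.04 and -0.17.

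The male knockout stood far apart at a pair of islands. At chr13:83857278-83881546, H3K4me3 was 65.5, 63.5 and 59.7 CPM in wild type, then 97.7, 86.7 and 89.0 in the female knockout and 197.9 in the male knockout. At chr14:49280850-49290274 it was 14.2, 16.3 and 14.4, then 22.4, 21.8 and 20.9, then 58.1. Both groups of knockouts were above every wild-type library at each. The male knockout exceeded wild type by 1.66 ± 0.05 and 1.97 ± 0.07 on the log2 scale, the female knockout by 0.53 ± 0.04 and 0.54 ± 0.06, and the female was below the male by 1.12 ± 0.05 and 1.42 ± 0.06 (largest edgeR adjusted p of the 6 = 9.29e-16). H3K27me3 of their domains differed from wild type by less than 0.10 in either knockout.

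The falls with the smallest p in the female knockout lay in 1 domain on chromosome 13. In the domain chr13:23483089-23506047 the island chr13:23492623-23494661 stood at 33.4, 30.5 and 32.5 CPM in wild type, then 13.24, 14.25 and 13.98 in the female knockout and 17.0 in the male knockout. Its log2 fold change was -1.23 ± 0.05 (edgeR adjusted p = 2.47e-55) and -0.92 ± 0.08 (edgeR adjusted p = 1.80e-29). A second island of the same domain, chr13:23503231-23505445, changed by -0.79 ± 0.05 (edgeR adjusted p = 1.76e-33) and -0.57 ± 0.07 (edgeR adjusted p = 1.61e-12). H3K27me3 of this domain differed by -0.14 and -0.12. Lower in the male knockout than in the female were chr15:85499817-85505568 (female minus male 0.69 ± 0.06, edgeR adjusted p = 1.44e-23), chr11:100827786-100833029 (0.59 ± 0.07, edgeR adjusted p = 5.07e-14) and chr4:107105283-107116799 (0.54 ± 0.06, edgeR adjusted p = 1.11e-16).

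UTX peaks of the O9-1 line were found in 431 of 1046 domains (41.2%, exact 95% interval 38.2 to 44.3), against 17.8% of narrower wild-type H3K27me3 peaks. Per length there were 0.33 UTX peaks per 10 kb in domains and 0.69 in narrower peaks. A UTX peak meeting a region by 1 bp counted in full, which by itself raises the number per length in narrow regions. The bases under UTX peaks, which are free of this, were nearly equal at 8.46% and 9.35%. Domains held 666 of the 21656 autosomal UTX peaks (3.08%). Of these 582 (87.4%) overlapped a wild-type H3K4me3 peak, as did 61.3% of the UTX peaks elsewhere. Their median fold enrichment, as deposited by the authors, was 2.16 in domains and 2.09 elsewhere. Of the 584 UTX peaks wholly inside a domain, 33.4% had their midpoint in the middle one of 5 equal parts and 11.6% and 11.1% in the outer parts, with the same limit from peak width as for H3K4me3. With 1 UTX library these shares have no replicate error.

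**Figure D5:**
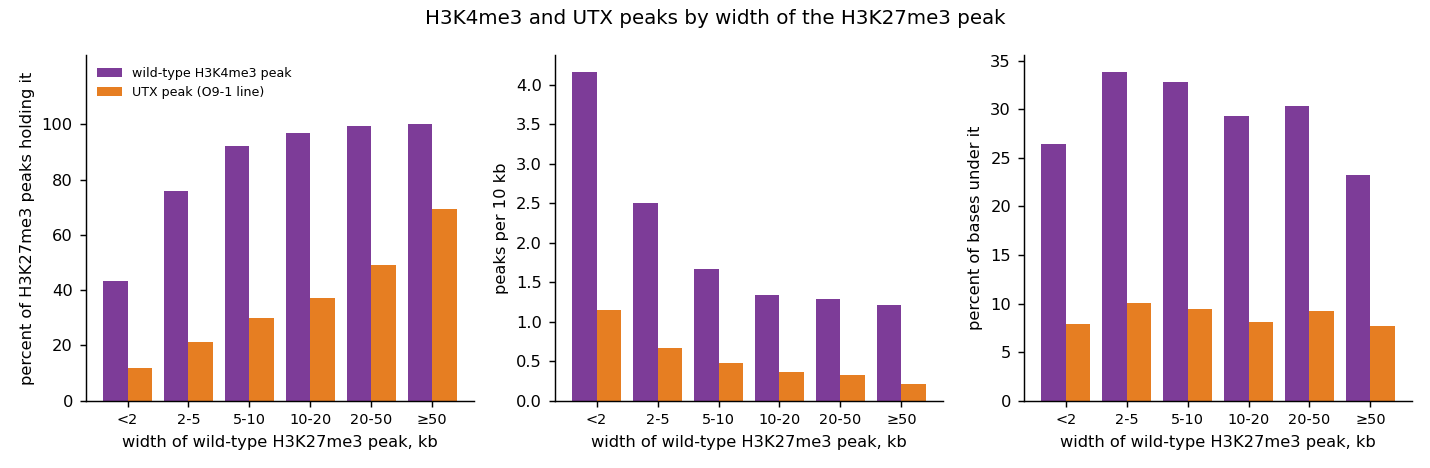
Share of wild-type H3K27me3 peaks that hold a wild-type H3K4me3 peak or a UTX peak (left), peaks per 10 kb (middle) and percent of bases covered (right), by width class in kb, with bars from 0. The share holding UTX goes from 11.95% under 2 kb to 69.2% at 50 kb or more, while UTX peaks per 10 kb go from 1.14 to 0.22. Peaks meeting a region by 1 bp count in full, which raises the values per 10 kb of narrow classes. Bases under UTX are 7.89% and 7.68% in the same 2 classes.

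The domains with the most UTX peaks differed in what H3K27me3 did. The chromosome 6 domain chr6:52093197-52279094 held 10, and chr8:87269030-87338850 held 8, with log2 fold changes of H3K27me3 in the female knockout of 0.07 and 0.44. Then came chr13:95624055-95667299, chr5:140004165-140046456 and chr14:70467471-70485049 with 5 each and 0.07, 0.13 and 0.11. The widest domain held 1 UTX peak, and chr2:74480229-74607603 held none. H3K4me3 over these 5 domains, summed over the peaks of both lists so that a region called in both counts more than once, went from a mean of 155, 189, 40.9, 36.4 and 79.5 CPM in wild type to 179, 171, 47.2, 43.6 and 96.4 in the female knockout, so it was lower only at the chromosome 8 domain.

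The median change of H3K27me3 differed little between domains with and without UTX, while that of H3K4me3 was higher in domains with it. The median log2 fold change of H3K27me3 in the female knockout was 0.05 in the 615 domains without a UTX peak, 0.05 in the 274 with 1, 0.06 in the 139 with 2 to 3 and 0.07 in the 18 with 4 or more. In the same order 205, 108, 64 and 12 were called higher and 83, 34, 13 and 2 lower, where 13.9% and 11.9% of all tested peaks were. For summed H3K4me3 the medians were 0.12 (over the 591 of the 615 domains with a value), 0.19, 0.19 and 0.24. In the male knockout they were 0.04, 0.05, 0.04 and 0.06 for H3K27me3, and 0.19, 0.25, 0.21 and 0.33 for H3K4me3. Domains with more UTX peaks were also wider (median 14078 bp without UTX and 34809 bp with 4 or more), denser (7.85 and 18.2 CPM per kb) and more covered by H3K4me3 (20.3% and 33.2% of width). The part of width, density and H3K4me3 in these medians and counts was not tested.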

How the data were processed

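Reads were handled by the authors with MACS2, HTSeq, Trimmomatic, Bowtie2, TopHat2, bedtools and SAMtools on build mm9, per the submitters' processing notes; versions and peak-calling thresholds are not given in the sources used here. In the deposited tables of both histone marks the values are raw counts of reads in each broad peak from MACS2. Each table holds a list from wild type and a list from the female knockout, and where these overlap the same reads are counted in both. The deposited −log10 q value of each peak ranked the stricter peak lists. The UTX list's fold enrichment was used as deposited; the H3K27me3 fold and p columns hold impossible values and were not used. The deposited RNA counts served for markers only.

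Coordinates are 1-based mm9. CPM of both histone marks used library totals multiplied by the TMM factors of all 7 libraries. Peaks on chromosomes 1 to 19 were fitted with edgeR 4.0.16 in R 4.3.3 (TMM factors, filterByExpr, quasi-likelihood test, threshold 0.05): female knockout and wild type in a fit of 6 libraries, other contrasts in a fit of all 7. DESeq2 1.42.0 was an alternative. Scripts were tested on simulated data. Overlaps needed 1 bp; intervals are Clopper-Pearson (scipy 1.17.1) and cover counting error only. Plots used matplotlib 3.10.9. All deposited count columns belonged to a sample.

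Members and lists were chosen with earlier results of these data known. Named regions are the 10 widest, the 5 densest, the 3 with the smallest p per contrast and direction, the 5 with most UTX peaks, the 5 most and 5 least under H3K4me3 at 20 kb or more, the 3 on each side of the threshold, the 5 least covered and, per contrast and direction, the 3 H3K4me3 peaks with the smallest p. The 1.5-fold limit and the domains it names were added after the values were seen.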

Additional observations from a re-analysis of the deposited data

Results flagged for a closer look

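Among the domains named above, 18 differed in H3K27me3 between the female and the male knockout, which share the targeted gene and differ in sex. The test was edgeR's quasi-likelihood test of the difference itself, with 3 female libraries and 1 male library. Of all 1046 domains 3.35% were higher and 3.25% lower in the female knockout, and of all tested peaks 1.41% and 1.43%. In 9 of them the female knockout was higher on the log2 scale: chr4:61460449-61471146 (0.65), chr4:138002227-138016469 (0.34), chr16:91299619-91316400 (0.34), chr12:110682921-110700294 (0.27), chr1:75441639-75456684 (0.24), chr4:124654816-124669709 (0.21), chr8:87269030-87338850 (0.15), chr5:120104087-120143624 (0.13) and chr1:78125469-78218153 (0.13). In the other 9 it was lower: chr17:36274830-36310359 (-0.90), chr6:124941539-124954531 (-0.70), chr14:112072650-112082836 (-0.58), chr17:36348390-36379083 (-0.49), chr10:80295760-80308661 (-0.44), chr6:143339975-143352466 (-0.41), chr17:35443842-35462298 (-0.33), chr13:22070137-22081369 (-0.31) and chr9:98565797-98575799 (-0.25). Of these, 3 were named for that difference in each direction. Some of the rest were named for their p or fold against wild type, comparisons that used the same knockout libraries. Others were named for properties such as width. For the domains named by p or fold, passing the test was favoured by the choice and supports nothing.

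H3K4me3 peaks in domains differed between the knockouts by the same test at 12 of the named peaks, some of which are the same region called in both lists. Of all tested H3K4me3 peaks in domains 3.35% were higher and 18.3% lower in the female knockout, and of all tested H3K4me3 peaks 4.66% and 7.25%. The female knockout was higher at chr15:85499817-85505568 (0.69) and its wild-type counterpart chr15:85499559-85505754 (0.68), at chr11:100827786-100833029 (0.59), at chr4:107105283-107116799 (0.54), and at chr5:120109972-120141556 (0.41) and its counterpart chr5:120110559-120141298 (0.41). It was lower at chr14:49280850-49290274 (-1.42), at chr13:83857278-83881546 (-1.12) and its counterpart chr13:83852575-83882025 (-1.05), at chr13:23492643-23494725 (-0.30) and its counterpart chr13:23492623-23494661 (-0.30), and at chr10:21867815-21871581 (-0.19). All named H3K4me3 peaks were picked for the smallest p in a comparison, some of them in this comparison. Their passing the test was thus favoured by the choice and supports nothing.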

How the results depend on the processing

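Shares of domains called, all from edgeR unless said otherwise, moved by over 1.5 times as follows. For H3K27me3 of the female knockout against wild type, 37.2% were higher and 12.6% lower; the wild-type peak list alone gave 56.2% higher, library totals 22.9% lower, and width thresholds of 5000 and 20000 bp 20.1% and 6.71% lower. For the male knockout, 11.2% were higher and 4.49% lower; DESeq2 gave 5.93% higher and 2.49% lower, the wild-type list 26.5% higher and library totals 8.60% lower. For female against male knockout, 3.35% were higher and 3.25% lower; library totals gave 5.93% and 5.07%, DESeq2 1.24% and 1.24%, and 20000 bp 1.68% lower. For H3K4me3 peaks in domains, female knockout against wild type, library totals gave 18.5% higher and DESeq2 5.54% lower; for the male knockout, library totals gave 27.1% higher and 16.6% lower and DESeq2 3.86% lower; for female against male, library totals gave 5.47% higher and DESeq2 1.27% higher and 11.7% lower.

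Leaving out 1 library at a time, the H3K27me3 shares ranged from 27.8% to 39.3% higher and 10.1% to 13.3% lower (female), 8.22% to 21.5% and 3.82% to 5.07% (male), and 1.91% to 4.02% and 2.29% to 4.02% (female against male). The H3K4me3 shares ranged from 33.2% to 36.6% and 9.44% to 13.1%, 37.7% to 41.8% and 8.30% to 10.6%, and 2.45% to 4.03% and 15.0% to 19.1%.

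Replicate numbers are shared between groups, but same-numbered libraries did not deviate together (correlations of 0.11, 0.02 and 0.02 for H3K4me3), so they were not treated as pairs. With the replicate block, the share higher in female against male knockout for H3K27me3 was 6.60%; the other 11 shares moved by less than 1.5 times.

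The domains' share of H3K27me3 reads was 0.34 percentage points higher in the female knockout than in wild type. It was 1.03 over the wild-type list and 0.10 at 5000 bp, and 0.24 to 0.40 with 1 library left out. For H3K4me3 that range was 0.30 to 0.38. Coverage of 80% by female knockout peaks held for 84.8% of domains with only the peaks at or above the median −log10 q, 83.9% at 5000 bp and 97.3% at 20000 bp. H3K4me3 was held by 94.5% with an overlap of 500 bp, 65.9% with only those at or above the median −log10 q, 93.7% at 5000 bp and 99.3% at 20000 bp. UTX was held by 38.1%, 25.0%, 33.3% and 51.0% in the same order.

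Under library totals the H3K4me3 fold change of the female knockout changed sign at chr15:85499817-85505568 (-0.0080) and chr15:85499559-85505754 (-0.018), and that of the male knockout at chr5:120109972-120141556 (-0.041) and chr5:120110559-120141298 (-0.041). No named domain changed sign in H3K27me3 with a call on either side. Depth limits narrow regions most: the coefficient of variation between wild-type H3K27me3 libraries had a median of 2.05% in domains and 9.14% in narrower peaks.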

Other observations

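The number of domains per chromosome ran from 24 on chromosome 16 to 104 on chromosome 2. Whether these numbers differ beyond chance was not tested. As a share of each chromosome's wild-type H3K27me3 peaks, domains made up 8.20% on chromosome 19, 6.73% on chromosome 2 and 4.56% on chromosome 16. The domains with no H3K4me3 peak were called in both directions in the female knockout, with 6 higher and 8 lower of 24. Of all domains 37.2% were called higher and 12.6% lower, and of all tested peaks 13.9% and 11.9%.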
